A study of Homo sapiens with 16 samples.

Results

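The combination of simvastatin and irinotecan was compared with the sum of the effects of its 2 drugs, gene by gene, in a human glioblastoma line, U-251 MG. All 16 of the 16 libraries of the series were used, in 4 groups of 4. Cells were given DMSO as vehicle, 0.06 µM simvastatin, 0.6 µM irinotecan, or the 2 drugs together at those doses. Treatment started 24 h after seeding and lasted 48 h, and the medium of every group was high-glucose DMEM with serum. The quantity followed is the interaction, which is combination minus simvastatin minus irinotecan plus DMSO on the log2 scale. It is 0 where the fold changes of the drugs multiply, below 0 where the combination lies under that level and above 0 where it lies over it. No label states that the 4 libraries of a group are separate cultures, and p-values then measure only the spread between these libraries, which may be technical. U-251 MG is an established line, and the series holds 1 dose and 1 time per drug.

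Simvastatin inhibits HMG-CoA reductase, the enzyme that commits carbon to cholesterol and isoprenoids, and cells answer a loss of sterols by raising the genes controlled by SREBP2. Irinotecan is a prodrug of SN-38, which traps topoisomerase I on DNA and causes breaks during replication. Many drugs also engage the integrated stress response, in which phosphorylated eIF2 alpha slows translation and the factor ATF4 raises genes for amino acid synthesis, redox balance and growth arrest. When a pair of drugs acts on the same target gene, the gene can fall short of the product of the single effects or exceed it. The title of the series names TGF-β, a secreted growth factor that signals through receptor kinases and SMAD proteins and raises matrix genes, thrombospondin 1 and CTGF among them.

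Library totals were 24159673 to 32318888 counts, with 24159673 to 27502415 in the combination group. Counts from mitochondrially encoded genes were 2.37% to 4.58% of a library, with means of 3.68% with DMSO, 3.33% with simvastatin, 3.76% with irinotecan and 3.03% with both drugs. Of 11 leukocyte markers, 9 stayed under 0.5 CPM (counts scaled to library size) in every library, CD3E and PTPRC among them. Of 11 astrocyte and glioma markers, AQP4 and ALDH1L1 stayed under 0.5 CPM, and the summed level of the list was 8497 to 10489 CPM per library. In RNA of a whole culture, fewer cells that express a gene and less of its RNA per cell cannot be told apart.

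Of 16647 genes tested with edgeR, 2 departed from additivity at an adjusted p under 0.05, 0.012% of all genes. These were CXCL8 and DDIT4, and both were lower than additive (0.012% lower and 0% higher). At an unadjusted p under 0.05 there were 1000 genes (6.01%), with 546 higher than additive (3.28%) and 454 lower (2.73%). The median interaction over all genes was 0.01 on the log2 scale, and its median size was 0.0877. Its standard error was 0.108 at the median, against 0.0767 for simvastatin against DMSO and 0.0761 for irinotecan against DMSO.

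These widths set what could be seen. The 95% interval of the interaction lay within 0.5 log2 units of 0 for 10783 genes (64.8%) and within 1 unit for 13473 (80.9%). Among the 6347 genes whose mean log2 CPM was 5 or more, it lay within 0.5 units for 6245 (98.4%). For well-expressed genes a departure beyond 0.5 log2 units was therefore outside the interval in nearly every case. Among genes of low level the intervals were too wide for such a statement.

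CXCL8 encodes interleukin-8, a chemokine that attracts neutrophils and that many tumour cells release under stress. The gene (ENSG00000169429) lies at chr4:73740506-73743716 on the plus strand of GRCh38. DDIT4, also known as REDD1, encodes an inhibitor of mTORC1 that stress and low oxygen raise, and it (ENSG00000168209) lies at chr10:72273920-72276036 on the plus strand. Their promoters are shown because they are the only genes called in the interaction. Each sequence is the 250 bases before the RefSeq start on GRCh38.p14, plus strand, at chr4:73740319-73740568 for CXCL8 and chr10:72273674-72273923 for DDIT4.
CXCL8: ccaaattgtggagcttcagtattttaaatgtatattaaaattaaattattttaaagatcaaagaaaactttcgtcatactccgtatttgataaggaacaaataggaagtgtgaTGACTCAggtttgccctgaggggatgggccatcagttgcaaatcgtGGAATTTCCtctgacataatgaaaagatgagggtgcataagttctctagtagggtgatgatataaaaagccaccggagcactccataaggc
DDIT4: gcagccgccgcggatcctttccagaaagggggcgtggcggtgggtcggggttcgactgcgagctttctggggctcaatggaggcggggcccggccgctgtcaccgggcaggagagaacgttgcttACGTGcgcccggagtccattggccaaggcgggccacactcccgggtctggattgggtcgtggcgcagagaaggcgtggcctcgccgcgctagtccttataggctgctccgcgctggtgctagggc

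Capitals mark matches to 6 motifs that were searched on both strands. In CXCL8 they are an AP-1 match (TGANTCA) that begins 137 bases before the start and an NF-kB match (GGNNTTTCC) that begins 91 bases before it. In DDIT4 they mark a match to the core of the hypoxia response element (ACGTG) 125 bases before the start. Among 35116 promoters of the same length, 6.57% held the AP-1 letters, 5.48% the NF-kB letters and 18.5% the ACGTG core. Neither window held TGATGNAA, as in sites of ATF4 with C/EBP proteins (3.14% of promoters), the E-box CACGTG, which contains ACGTG (6.34%), or the cAMP response element TGACGTCA (1.65%). A match describes these letters only, and binding was not measured.

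CXCL8 was the gene with the largest departure of the 2. Its levels in replicates 1 to 4 were 1.48, 0.870, 1.07 and 0.775 CPM with DMSO. With simvastatin they were 34.3, 28.6, 28.2 and 45.7 CPM. Irinotecan alone gave 5.25, 4.83, 3.26 and 4.50 CPM, and the combination gave 27.0, 23.6, 27.9 and 25.6 CPM. Every simvastatin library was thus above every combination library, and both groups were far above irinotecan and DMSO, with no overlap between any pair of groups. Simvastatin raised the gene by 5.02 log2 units without irinotecan, and by 2.54 with it. Irinotecan raised it by 2.09 without simvastatin, while the difference with simvastatin was -0.39 (edgeR adjusted p = 0.058). The mean of the combination was 26.0 ± 1.9 CPM (SD, n = 4), where multiplying fold changes would give 146 CPM and adding CPM would give 37.6 CPM. The log2 interaction was -2.48 ± 0.33 (SE, 95% interval -3.18 to -1.78, edgeR adjusted p = 0.0370), 5.58-fold under the log-additive level. On the linear scale the shortfall was -11.6 ± 4.2 CPM (SE).

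DDIT4 differed in shape, because the single drugs moved it in opposite directions. With DMSO replicates 1 to 4 had 57.6, 50.9, 58.0 and 48.0 CPM. Simvastatin libraries had 88.6, 87.6, 93.7 and 92.0 CPM, and irinotecan libraries had 45.3, 38.8, 43.7 and 42.5 CPM. The combination had 54.7, 50.1, 51.0 and 55.5 CPM. The combination libraries lay in the range of DMSO, above all irinotecan libraries and below all simvastatin libraries. Simvastatin raised DDIT4 by 0.76 log2 units alone, and by 0.31 on top of irinotecan. Irinotecan lowered it, with log2 changes of -0.33 alone and -0.78 on top of simvastatin. The mean with the combination was 52.8 ± 2.7 CPM against a log-additive level of 71.9 CPM. This gave an interaction of -0.44 ± 0.08 (SE, 95% interval -0.61 to -0.28, edgeR adjusted p = 0.0370), or 1.36-fold under additivity, and -26.7 ± 3.4 CPM on the linear scale.

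Both calls were near the threshold. When each library was left out in turn, the CXCL8 interaction ran from -2.70 to -2.31 and the call held in 5 of 16 cases, without DMSO replicate 1, simvastatin replicates 2, 3 or 4, or irinotecan replicate 3. In the other cases the adjusted p of edgeR rose as far as 0.178. The DDIT4 interaction ran from -0.49 to -0.39 and the call also held in 5 of 16 cases, without DMSO replicates 1 or 3, simvastatin replicates 2 or 3, or irinotecan replicate 2, with a highest adjusted p of 0.178. DESeq2 called both, and also GDF15 (adjusted p = 0.00163), THBS1 (adjusted p = 0.00771) and INHBE (adjusted p = 0.0178), while limma-voom called 0 genes (1055 at an unadjusted p under 0.05).

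**Figure D1:**
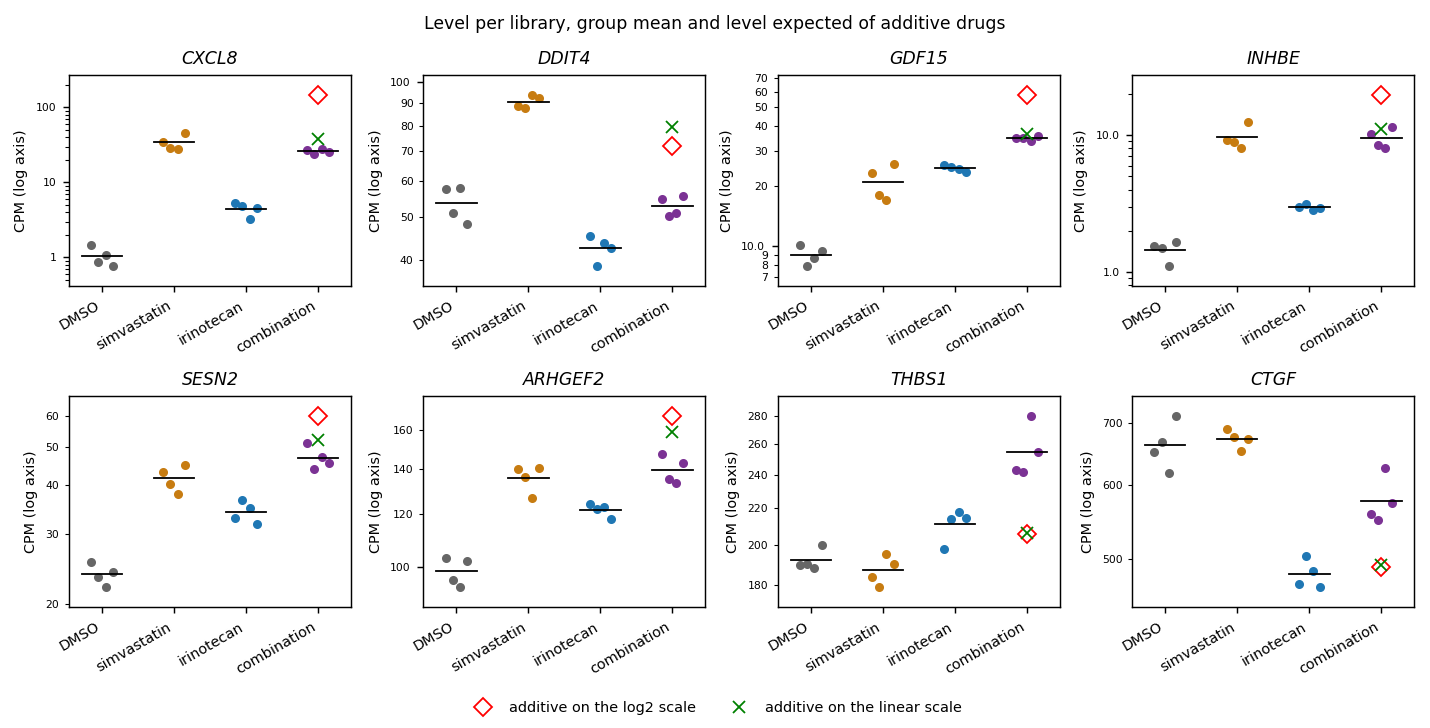
Levels of 8 genes in CPM (log axis) by group, with each point 1 library and each bar the group mean of 4 libraries. The open diamond is the level expected if fold changes multiply and the cross the level expected if CPM changes add. CXCL8 with the combination (mean 26.0 CPM) lies far below the diamond at 146 CPM, whereas THBS1 and CTGF lie above both symbols.

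The 10 genes with the smallest interaction p held 8 that were lower than additive and 2, THBS1 and CTGF, that were higher. Relative to the single-drug means, the combination lay between the drugs in 5 of them (CXCL8, DDIT4, INHBE, HILPDA and CTGF). It lay above both drugs in 4 (THBS1, GDF15, ARHGEF2 and SESN2) and below both in 1 (NALT1). Apart from CXCL8 and DDIT4 none passed the test, and their values are given as description.

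GDF15, a stress cytokine of the TGF-β superfamily, lies at chr19:18374731-18389176. Its levels in replicates 1 to 4 were 10.1, 7.95, 8.65 and 9.46 CPM with DMSO, and 23.2, 18.2, 17.1 and 25.8 CPM with simvastatin. They were 25.7, 25.1, 24.5 and 23.6 CPM with irinotecan, and 35.2, 35.1, 33.8 and 35.6 CPM with the combination. The combination was above every other library, and DMSO below every other. Both drugs thus raised it, by 1.21 and 1.45 log2 units, and the combination raised it by 1.94 against DMSO. Its interaction was -0.71 ± 0.14 (SE, edgeR adjusted p = 0.145), and it was called without simvastatin replicate 2 (0.0374) or replicate 3 (0.00183), with up to 0.512 without other libraries. On the linear scale the combination was at 34.9 ± 0.78 CPM (SD), against 36.8 CPM for added changes, a difference of -1.83 ± 2.21 CPM (SE). The departure seen for GDF15 on the log2 scale therefore did not exceed its error on the linear scale.

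INHBE encodes the beta E chain of activins and inhibins, members of the TGF-β superfamily, and lies at chr12:57452323-57459280. Its levels in replicates 1 to 4 were 1.55, 1.49, 1.11 and 1.65 CPM with DMSO, and 9.24, 8.91, 8.02 and 12.5 CPM with simvastatin. They were 2.97, 3.11, 2.85 and 2.91 CPM with irinotecan, and 10.2, 8.55, 8.04 and 11.4 CPM with the combination. Simvastatin and combination libraries overlapped, and all were above irinotecan, which was above DMSO. The interaction was -1.03 ± 0.22 (SE, edgeR adjusted p = 0.147), with 0.0317 without simvastatin replicate 3 and up to 0.509 without other libraries. Irinotecan raised INHBE by 1.02 log2 units alone, while the difference on top of simvastatin was -0.01. On the linear scale the departure was -1.60 ± 1.25 CPM.

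SESN2 encodes sestrin 2, a leucine sensor that restrains mTORC1 and is a target of ATF4 and p53. It had means of 23.7 ± 1.4 CPM with DMSO, 41.6 ± 3.1 with simvastatin, 34.2 ± 2.2 with irinotecan and 47.0 ± 3.2 with both drugs (SD, n = 4). Multiplied fold changes would give 60.0 CPM. The interaction of SESN2 was -0.35 ± 0.09 (SE, edgeR adjusted p = 0.421), and the linear departure was -5.13 ± 2.57 CPM. ARHGEF2, a microtubule-bound guanine nucleotide exchange factor, had means of 98.4 ± 4.7, 136 ± 6.5, 122 ± 2.7 and 140 ± 6.4 CPM in the same order. Its combination and simvastatin libraries overlapped, and its interaction was -0.26 ± 0.06 (edgeR adjusted p = 0.299). HILPDA, a lipid droplet protein that hypoxia raises, had means of 15.0 ± 1.8, 23.2 ± 1.8, 12.8 ± 1.0 and 13.7 ± 1.6 CPM. Its interaction was -0.53 ± 0.12 (edgeR adjusted p = 0.421), and the combination overlapped irinotecan alone. NALT1, a long noncoding RNA beside NOTCH1, was below 1 CPM in all libraries, and its interaction of -2.21 ± 0.49 (edgeR adjusted p = 0.237) rests on few counts.

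THBS1 encodes thrombospondin 1, a matrix protein that releases TGF-β from its latent form, and lies at chr15:39581079-39599466. Its levels in replicates 1 to 4 were 189.6, 190.1, 188.4 and 199.9 CPM with DMSO. Simvastatin libraries had 183.6, 179.2, 195.3 and 190.3 CPM, and irinotecan libraries 197.8, 214.1, 217.7 and 214.6 CPM. The combination had 242.8, 242.0, 279.8 and 254.4 CPM, above all other libraries. Against DMSO the log2 difference was -0.04 with simvastatin alone (edgeR adjusted p = 0.75), 0.14 with irinotecan alone (edgeR adjusted p = 0.019) and 0.41 with the combination (edgeR adjusted p = 1.0e-08). The log2 interaction of THBS1 was 0.31 ± 0.06 (SE, edgeR adjusted p = 0.095), 1.24-fold over the log-additive level, and the linear departure was 48.7 ± 10.8 CPM. Without simvastatin replicate 3 the adjusted p of edgeR was 0.0271, the lowest with any library left out, and the highest was 0.347.

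CTGF (CCN2), a matricellular protein that TGF-β and YAP raise, lies at chr6:131948176-131951373. Its levels in replicates 1 to 4 were 651, 668, 618 and 712 CPM with DMSO, and 690.4, 676.9, 653.3 and 672.5 CPM with simvastatin. They were 469.9, 503.3, 484.5 and 466.3 CPM with irinotecan, and 558, 550, 626 and 574 CPM with the combination. DMSO and simvastatin overlapped. The combination was above every irinotecan library and below every simvastatin library. Irinotecan lowered CTGF, with log2 changes of -0.46 alone and -0.22 on top of simvastatin. The interaction was 0.24 ± 0.06 (SE, edgeR adjusted p = 0.421), and the linear departure was 84.9 ± 28.4 CPM.

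A second view asks how an effect of 1 drug carried over when the other was present. The effect of simvastatin without irinotecan (simvastatin against DMSO) and with it (combination against irinotecan) use different libraries, and so do the 2 effects of irinotecan. Simvastatin alone changed 999 genes (6%), and simvastatin on top of irinotecan changed 989 (5.94%). Of the 999, 975 had the same sign in the other libraries and 517 were called there in the same direction. The shared genes were 51.8% of the first list and 52.3% of the second, and none was called in the opposite direction. Irinotecan alone changed 4015 genes (24.1%), and 4259 (25.6%) on top of simvastatin. Of the 4015, 3930 had the same sign and 2747 were called in the same direction, 68.4% of the first list and 64.5% of the second, and again none was called in the opposite direction.

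The sizes of these effects depended on which comparison chose the genes. Genes called with simvastatin alone had a median size of 0.24 log2 units there and 0.18 on top of irinotecan. Genes called with simvastatin on top of irinotecan had 0.23 there and 0.18 with simvastatin alone. For irinotecan the pairs were 0.28 and 0.24, and in the other direction 0.27 and 0.22. The comparison that chose the genes held the larger value each time, so these medians show no direction of departure.

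Effects of 1 log2 unit or more were taken separately, in genes whose mean log2 CPM was 1 or more. For simvastatin there were 8 such genes, with a median size of 1.23 without irinotecan and 0.64 with it, and all 8 were smaller with it. In the other direction only 2 genes were chosen, CXCL8 and INHBE, and both were larger without irinotecan. Both are also among the 8, so this choice is no separate check of the direction. For irinotecan there were 58 such genes, with a median of 1.18 without simvastatin and 1.06 with it, and 56 of them were called again. Chosen on top of simvastatin instead, 59 genes had a median of 1.10 there and 1.08 without simvastatin, and 43 of them were smaller without it, so for irinotecan the direction turned with the choice. Across the 6347 genes of higher level, Pearson's r between the effects without and with the other drug was 0.741 for simvastatin (Spearman's rank correlation 0.640) and 0.890 for irinotecan (0.840). Genes are not independent replicates, and these values describe the libraries.

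**Figure D2:**
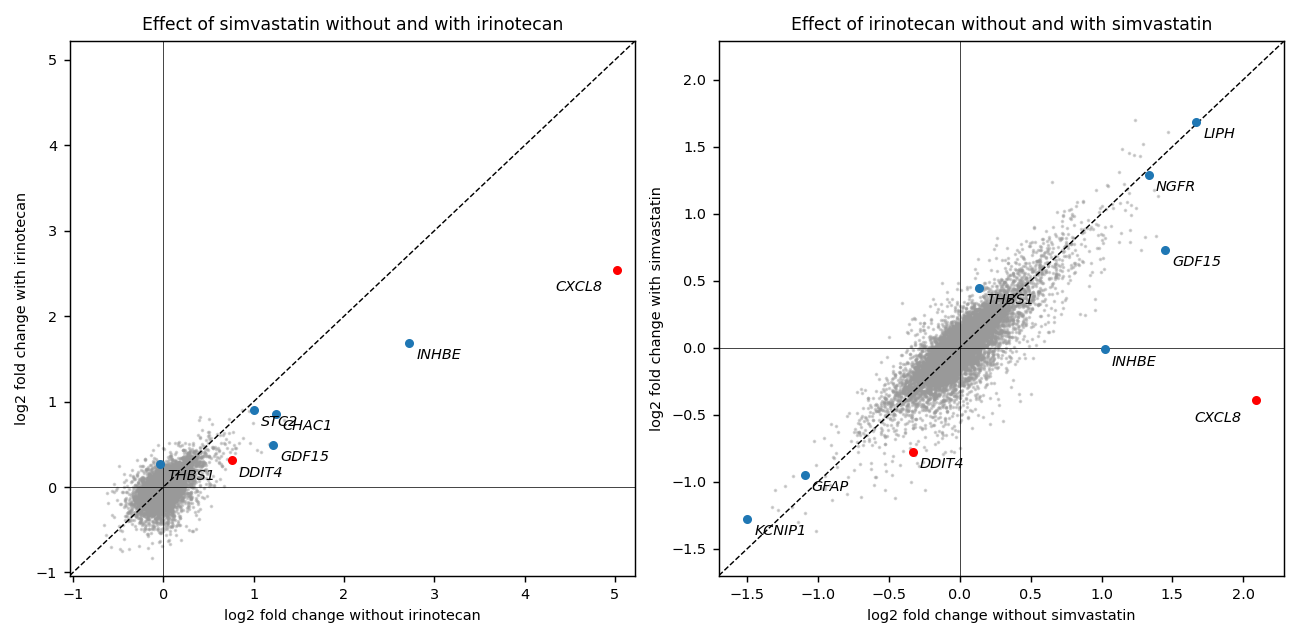
Log2 fold change of each of 12502 genes without the other drug (x axis) and with it (y axis), for simvastatin on the left and irinotecan on the right. Points on the dashed line are additive, and red points are CXCL8 and DDIT4, called in the interaction, while blue points are other named genes. CXCL8 lies far under the line in both panels, while LIPH, NGFR and KCNIP1 lie close to it.

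The strongest responders to each drug were described next. The 10 largest changes with simvastatin alone were CXCL8, INHBE, KCNK6, CHAC1, GDF15, TRAF1, RN7SL2, ADM2, STC2 and CTH, and all rose. Their median interaction was -0.63, from -2.48 to -0.09, and 8 of the 10 were lower than additive at an unadjusted p under 0.05. They were chosen for a high simvastatin effect in libraries that the interaction also uses with a minus sign, so a negative interaction is favoured by the choice. CHAC1, an enzyme that degrades glutathione, had 12.8, 30.4, 14.1 and 25.6 CPM with DMSO, simvastatin, irinotecan and the combination (means of 4). Simvastatin raised CHAC1 by 1.24 log2 units alone and by 0.85 on top of irinotecan, and its interaction was -0.39 ± 0.12. The apoptosis regulator TRAF1 (NF-kB target) had an interaction of -0.67 ± 0.19, the vasoactive peptide ADM2 of -0.60 ± 0.17, and the potassium channel KCNK6 of -0.55 ± 0.23. On the linear scale the departure of KCNK6 had the other sign, at 0.242 CPM. STC2, a stanniocalcin, was closest to additive at -0.09 ± 0.07. RN7SL2, an RNA of the signal recognition particle with a near-identical copy, is uncertain in poly(A)-selected counts.

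The 10 largest changes with irinotecan alone were CXCL8, LIPH, KCNIP1, SMPDL3B, GDF15, TUBB4A, APOE, RYR2, NGFR and ZNF423. Their median interaction was -0.12, and the 95% interval held 0 for 7 of them and lay within 1 log2 unit for 8. These genes too were chosen in libraries that the interaction uses with a minus sign. That favours an interaction opposite in sign to the irinotecan effect. Some of them rose and others fell, so such values can cancel in the median. LIPH, a phospholipase, rose by 1.67 log2 units without simvastatin and by 1.68 with it, and its interaction was 0.02 (95% interval -0.38 to 0.41). NGFR, the p75 neurotrophin receptor, rose by 1.33 and 1.29, with an interaction of -0.04 (-0.28 to 0.19). KCNIP1, a partner of potassium channels, fell by 1.50 and 1.28 on the log2 scale, with an interaction of 0.22 (-0.10 to 0.55). ZNF423, a zinc finger factor, fell by 1.33 and 1.19, with an interaction of 0.13 (-0.13 to 0.40). APOE, an apolipoprotein of lipid transport, was the exception beside CXCL8 and GDF15: it rose by 1.38 and 0.84, with an interaction of -0.55 (-1.02 to -0.07).

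**Figure D3:**
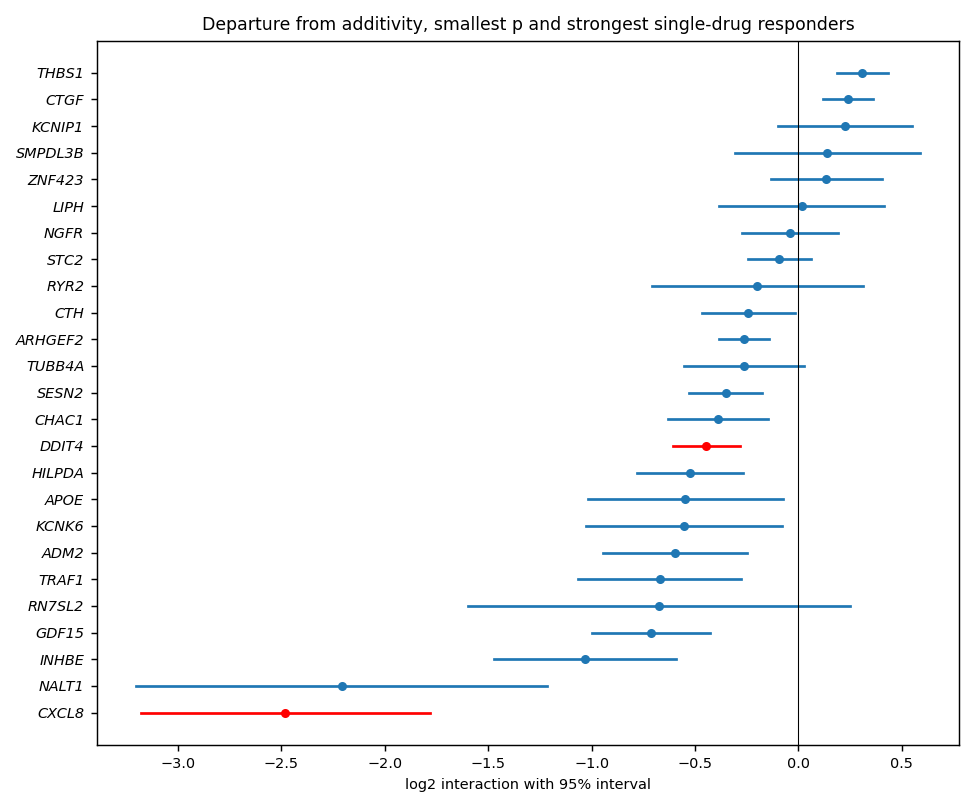
Log2 interaction (x axis) with its 95% interval for 25 genes, the 10 with the smallest p and the 10 strongest responders to each drug. Red marks the genes called by edgeR, CXCL8 and DDIT4. Most intervals on the positive side hold 0, and those of THBS1 and CTGF do not.

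Gene lists were read by counts and medians, beside the median of 0.01 over all genes. Of all genes, 3.28% were higher and 2.73% lower at an unadjusted p under 0.05, and 52.2% had a positive sign. Over 48 lists of pathways and gene families the median interaction ran from -0.15 to 0.12, and for 43 it lay within 0.1 of 0. Called genes were held by 3 of them, the lists of integrated stress response genes, mTORC1 brakes and chemokines. Several lists share genes, such as THBS1 and CTGF, and their counts are not independent. Counts of a few genes per list also moved when single libraries were left out. So did the count of all genes at an unadjusted p under 0.05, from 697 without simvastatin replicate 2 to 1649 without simvastatin replicate 3.

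The integrated stress response list had the lowest median. Of its 25 tested genes, 13 were lower than additive at an unadjusted p under 0.05 and none was higher, beside 2.73% and 3.28% of all genes. Its median was -0.15, and 22 of the 25 had a negative sign. Only DDIT4 passed the adjusted test in the edgeR fit of all 16 libraries. Simvastatin alone raised 22 of the 25 (edgeR, adjusted p under 0.05), beside 3.89% of all genes, and irinotecan alone raised 8 and lowered 8, beside 12.4% and 11.7%. The median effect of simvastatin was 0.50 alone and 0.31 on top of irinotecan. These genes were high with simvastatin, whose libraries enter the interaction with a minus sign. ATF4 itself, the factor of the response, had 349, 431, 297 and 345 CPM with DMSO, simvastatin, irinotecan and the combination, and an interaction of -0.09 ± 0.06 (named after its value was seen). Among enzymes of one-carbon and amino acid metabolism, also named after their values were seen, MTHFD2 had -0.19 ± 0.05, PSAT1 -0.15 ± 0.06 and SHMT2 -0.14 ± 0.06. With each library left out in turn the median ran from -0.19 to -0.12, and 8 to 14 genes were lower, with 8 in the cases without DMSO replicate 2, simvastatin replicate 4 or combination replicate 2.

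Related stress lists were nearer to additive. The endoplasmic reticulum chaperones and genes of the unfolded protein response had a median of 0.04 over 22 genes, with 1 higher at an unadjusted p under 0.05, HYOU1 at 0.11 ± 0.05. Among 11 mTORC1 brakes and sestrins the median was -0.09, and DDIT4 and SESN2 were the 2 lower genes. The hypoxia and glycolysis list had a median of -0.02 over 32 genes, and ALDOC (-0.75 ± 0.26) and ADM (-0.16 ± 0.08) were lower. Of the hypoxia genes 7 were lower without irinotecan replicate 2 and 4 without combination replicate 4, and the median was 0.02 without DMSO replicate 2. Of 10 chemokines and inflammatory cytokines, CXCL8 and GDF15 were lower, and LIF, a cytokine of the interleukin-6 family, had -0.14 ± 0.08.

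The list of collagens, laminins and matrix glycoproteins had the highest median, 0.12 over 30 genes. Of these, 14 were higher than additive at an unadjusted p under 0.05 and none was lower, beside 3.28% and 2.73% of all genes. In the list 27 had a positive sign, beside 52.2% of all genes. None of the 30 passed the adjusted test in the edgeR fit of all 16 libraries. DESeq2 called THBS1, and a fit that called more of them is given in the last section. THBS1 led with the values above. COL11A1, a fibrillar collagen chain, had means of 1220 CPM with DMSO, 1275 with simvastatin, 989.5 with irinotecan and 1145 with both drugs, and an interaction of 0.15 ± 0.05. LAMA5, a laminin chain of basement membranes, had 696, 631, 619.7 and 619.6 CPM and an interaction of 0.14 ± 0.05. COL1A1 had 24.6, 26.4, 33.7 and 41.8 CPM and an interaction of 0.21 ± 0.09 (named after its value was seen). The medians of the list with simvastatin alone and irinotecan alone were -0.00 and -0.01, and that of the combination against DMSO was 0.12.

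Gene length moved with this result. Across 6346 of the genes of higher level, Spearman's rank correlation between exonic length and the interaction was 0.243. In 5 length classes of equal size the median interaction went from 0.00 in the shortest to 0.06 in the longest, and the share higher at an unadjusted p under 0.05 from 2.36% to 7.49%. The median exonic length of the matrix list was 9728 bases, and of its 26 genes at that level 15 were in the longest class. Of those 15, 9 were higher, with a median of 0.13, beside 7.49% and 0.06 for all genes of that class. Of the other 11, 4 were higher, with a median of 0.09, beside 4.31% and 0.02 for all shorter genes of that level. The part of length in the matrix result was not tested. The count also rested on single libraries: it was 4 without DMSO replicate 3, where the median was 0.08, and 6 without simvastatin replicate 2, where it was 0.11. Scaling by library sizes alone gave 7 higher and a median of 0.10.

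Around TGF-β, the response genes and the ligands, receptors and latency proteins were on the side of the matrix list, with small values. Among 22 response genes the median was 0.10. Of them, 9 were higher and 1 lower at an unadjusted p under 0.05, beside 3.28% and 2.73% of all genes. TPM1, a tropomyosin, had an interaction of 0.19 ± 0.05, and the lower gene was ACTA2, smooth muscle actin, at 0.584 to 1.25 CPM in the group means and -0.94 ± 0.37 (named after its value was seen). The median was 0.05 without DMSO replicate 3 or irinotecan replicate 2, 0.06 without simvastatin replicate 1, and up to 0.13 without other libraries. Among 16 ligands, receptors and latency proteins the median was 0.07, with 4 higher, THBS1, TGFB3, LTBP2 and TGFBR2, and it was 0.04 without DMSO replicate 3. The receptor TGFBR2 had 86.1 ± 2.4 CPM with DMSO, 84.7 ± 3.2 with simvastatin, 95.4 ± 3.4 with irinotecan and 103 ± 5.6 with both drugs, and an interaction of 0.13 ± 0.06 (edgeR adjusted p = 0.823). The ligand TGFB1 had 132, 131, 129 and 133 CPM and an interaction of 0.05 (95% interval -0.07 to 0.18), and TGFB2 had 0.10 (-0.10 to 0.30). TGFBR1 was at -0.00 (-0.14 to 0.14). SMAD3, which carries the signal to the nucleus, was at 0.01 (-0.10 to 0.11). SMAD7, an inhibitor of the pathway, was near 1 CPM or below in all groups, and its interval of -0.90 to 0.96 sets no useful bound. Over 16 SMADs and regulators the median was 0.01, as over all genes, with PMEPA1 alone higher at 0.14 ± 0.05. Bone morphogenetic protein ligands, antagonists and response genes had a median of -0.01 over 19 genes, with 0 higher and 0 lower. Among 10 activins and follistatins the median was 0.10, with INHBE lower and INHBA higher, the latter with a mean under 1 CPM in each group.

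YAP and TEAD targets, genes of the Hippo pathway that respond to matrix stiffness, had a median of 0.10 over 25 genes. There were 8 higher and 0 lower, beside 3.28% and 2.73% of all genes, and 23 with a positive sign, beside 52.2%. None of the 25 passed the adjusted test in the edgeR fit of all 16 libraries. Without simvastatin replicate 3, 14 were higher, but genes at an unadjusted p under 0.05 also rose over all genes, from 1000 to 1649. CYR61, a matricellular relative of CTGF, had 1267, 1176, 985 and 1028 CPM and an interaction of 0.17 ± 0.05. NT5E, the ecto-enzyme CD73, had 16.4, 23.3, 11.4 and 19.9 CPM and an interaction of 0.29 ± 0.11.

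Interactions were small for the direct targets of both drugs. Over 26 sterol synthesis and uptake genes the median was 0.05, with 4 higher and 0 lower at an unadjusted p under 0.05. Over all genes 3.28% were higher and 2.73% lower. Of the 26 genes, 19 had a positive sign, beside 52.2% of all genes. Simvastatin alone gave the 26 genes a median effect of 0.10, irinotecan alone -0.25 and the combination -0.14. HMGCS1, HMG-CoA synthase, had 131 ± 8.2, 174 ± 14, 70.0 ± 1.4 and 105 ± 5.1 CPM in the order DMSO, simvastatin, irinotecan and combination. Simvastatin raised HMGCS1 by 0.41 log2 units alone and by 0.59 on top of irinotecan, and irinotecan alone lowered it, with a change of -0.91. The interaction of HMGCS1 was 0.18 ± 0.07 (edgeR adjusted p = 0.823), and on the linear scale the departure had the other sign, at -7.68 ± 8.43 CPM. INSIG1, which holds SREBPs in the endoplasmic reticulum, had an interaction of 0.16 ± 0.06. Fatty acid synthesis genes had a median of 0.08 over 13 genes with 3 higher (FASN, ELOVL5 and GPAM). A positive sign was held by 12 of the 13, and FASN, fatty acid synthase, had 0.20 ± 0.06. Without simvastatin replicate 3, 6 of the 13 were higher and the median was 0.13, while the unadjusted count over all genes also rose, from 1000 to 1649.

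TOP1, the target of irinotecan, had 178 ± 5.8, 182 ± 9.4, 190 ± 3.8 and 198 ± 7.0 CPM, and an interaction of 0.02 (95% interval -0.09 to 0.14). Of 14 topoisomerases and repair genes for trapped topoisomerase, TDP1, which clears trapped topoisomerase I, was alone in being higher at an unadjusted p under 0.05, at 0.13 ± 0.06. Of 29 p53 targets 2 were higher (PLK2 and ZMAT3) and 2 lower (SESN2 and PPM1D), with a median of -0.01. CDKN1A, the cell cycle inhibitor p21, rose from 51.5 ± 1.2 CPM to 60.8 ± 2.3 with simvastatin, 77.6 ± 1.0 with irinotecan and 88.8 ± 4.7 with both drugs. No pair of these groups overlapped, and multiplied fold changes would give 91.5 CPM. Its interaction was -0.04 (-0.17 to 0.08), so a departure of more than 0.17 log2 units lay outside the interval of CDKN1A.

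Genes of DNA replication had a median of 0.02 over 39 genes, with 2 higher (POLA1 and GINS1) and 1 lower (ORC6), and POLA1, a DNA polymerase subunit, was at 0.19 ± 0.06. Those of mitosis had 0.03 over 36 genes, with KIF4A, a chromosome kinesin, alone higher at 0.13 ± 0.05. Without simvastatin replicate 3 there were 6 higher among the replication genes and 4 among the mitotic genes. Over all genes the count at an unadjusted p under 0.05 also rose there, from 1000 to 1649. For all 39 and all 36 the 95% interval lay within 0.5 log2 units of 0. MKI67, a marker of proliferation, had 1261, 1083, 1119 and 1090 CPM and an interaction of 0.18 (-0.13 to 0.49). All 13 mitochondrially encoded mRNAs had a negative sign, with a median of -0.15, and none reached an unadjusted p under 0.05. The median ran from -0.28 without DMSO replicate 2 to -0.02 without simvastatin replicate 2. It was -0.00 when the mitochondrial share of each library was added to the fit. That share is summed from counts of these same genes, so a value near 0 follows from the fit and is no separate check.

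**Figure D4:**
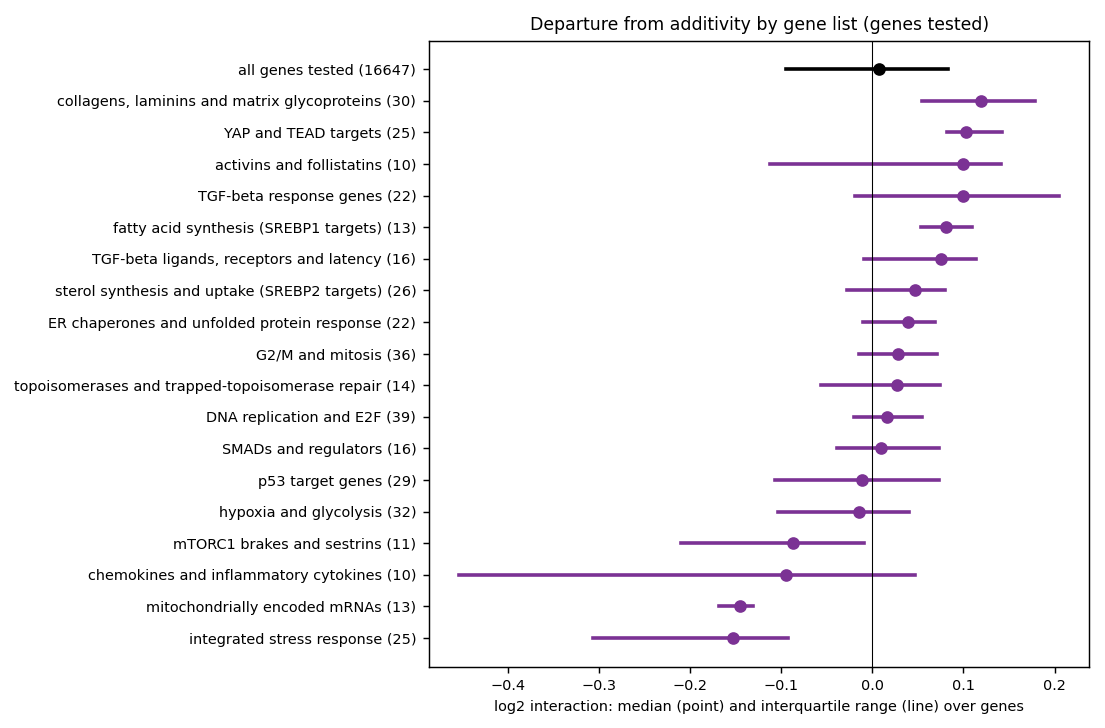
Median (point) and interquartile range (line) of the log2 interaction over the tested genes of 18 lists and over all 16647 genes, with the number of genes in brackets. The integrated stress response list has the lowest median (-0.15) and the matrix list the highest (0.12), and the ranges of most other lists include 0.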

How the data were processed

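RNA of 16 libraries, enriched for polyadenylated transcripts, was read as pairs on an Illumina instrument, per the labels' protocols. The authors deposited raw counts, with 58243 Ensembl IDs in rows. FastQC, STAR 2.7.1 with the GRCh38 build, and DESeq2 are named per the submitters' processing notes. The strand setting, like the annotation and counting tool, is not given in the sources used here, and genes that overlap on opposite strands or have near-identical copies are uncertain. GENCODE 29 supplied coordinates for 57980 IDs, and promoters came from RefSeq (GRCh38.p14). The library of each group whose title has no number was called replicate 4. No 2 libraries of a group were duplicates (chi-squared per degree of freedom 2.59 to 15.4 over 24 pairs).

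Analysis used R 4.3.3, edgeR 4.0.16 and limma 3.58.1. Genes were filtered with filterByExpr by group (minimum count 10, minimum total 15) and scaled by TMM, and robust quasi-likelihood models took 1 term per group over all 16 libraries. Two-sided F tests were adjusted by Benjamini-Hochberg over 16647 genes, and a call is an adjusted p under 0.05. A standard error is the size of the change over the root of F. The biological coefficient of variation was 5.25%. Levels are CPM on TMM-scaled library sizes (marker levels use library totals alone), and the log-additive level is that of an interaction of 0. Linear departures combine group means, with errors from group SDs and no test. Scripts were tested on simulated data.

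Members, gene lists and tests were chosen with earlier results of these data known. Named genes were those called in the interaction, the 10 with the smallest interaction p, up to 3 members of each list by smallest p, the 10 strongest responders to each drug whose mean log2 CPM was 1 or more, and 12 fixed genes. Some genes that the rule takes are not reported here. The alternatives comprised DESeq2 1.42.0, limma-voom, median-ratio size factors, no filter, thresholds of 0.01 and 0.1, a minimum of 1.2-fold, the 12 numbered libraries with and without a replicate block, and each library left out in turn. Scaling by library sizes alone, the mitochondrial share as a covariate and removal of the 4 libraries numbered replicate 3 were chosen after seeing the data. Plots used Python 3.11.15 and matplotlib 3.10.9. All 16 libraries were kept.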

Additional observations from a re-analysis of the deposited data

Results flagged for a closer look

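DDIT4 and CXCL8 stood out because the effect of each drug on them differed with and without the other by edgeR's test of that difference, with log2 interactions of -0.44 and -2.48. Of 88 groups of 4 libraries, made of the levels of 20 genes, the total counts and the mitochondrial share in each of the 4 treatments, 6 held a library whose gap to its nearest neighbour exceeded 0.829 of the range of its group, and chance gives about 5%. THBS1 had 199.9 CPM in DMSO replicate 4, the highest of that group. TGFBR1 had 69.5 CPM in simvastatin replicate 3, the highest there, and 56.7 CPM in combination replicate 4, the lowest there. In combination replicate 3 HILPDA was lowest at 11.2 CPM and TGFBR2 highest at 111 CPM. HMGCS1 was highest in combination replicate 4 at 113 CPM. Each of these is 1 library, and no value was removed. On the first component of the variation within groups, with 29.1% of the variance, the 4 libraries numbered replicate 3 lay at -8.21 to -3.83 and were the lowest of their group in 3 of 4 groups. The part of this pattern in the single values above was not tested.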

How the results depend on the processing

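The count of 2 genes, 0 higher and 2 lower, depended on the test. DESeq2 called 5 (1 higher, 4 lower: THBS1 beside CXCL8, DDIT4, GDF15 and INHBE). A fit with no filter on low counts called 14 (1 higher, 13 lower), and a threshold of 0.1 added 1 higher gene. Counts were 0 with limma-voom (1055 genes at an unadjusted p under 0.05), with a threshold of 0.01, with a minimum of 1.2-fold, and without the 4 libraries numbered replicate 3 (1101 unadjusted). With each library left out in turn the count ran from 0 to 9, that of higher genes from 0 to 4 and that of lower genes from 0 to 5, with 9 without simvastatin replicate 3. Median-ratio size factors, library sizes alone and the mitochondrial share as a covariate kept CXCL8 and DDIT4 as the 2 calls. The replicate block, fitted to the 12 numbered libraries, gave 190 genes (93 higher, 97 lower), against 1 lower gene, CXCL8, in the same 12 without the block. Deviations of same-numbered libraries correlated by -0.06 to 0.20 over 18 pairs (4 over 0.1), with a median of 0.06 against -0.03 for the 36 other pairs, and 9 of 12 libraries correlated best with their own number. Libraries with the same number were thus closer at the median, but not every pair was over 0.1 and no label says what a number marks. The block is therefore given as an alternative, and the number of calls depends strongly on it. Whether numbers mark a shared batch was not tested. With the block the matrix list had 21 genes higher at an unadjusted p under 0.05 and 8 called (THBS1 among them), against 14 and 0 in the same 12 libraries without it, and the integrated stress response list had 14 lower and 4 called, against 8 and 0. Some values changed sign, and not all of these were near 0. KCNK6, for one, ran from -0.67 to -0.39 on the log2 scale over 25 settings. On the linear scale KCNK6 was at 0.242, LIPH at -0.546, SMPDL3B at -0.0234, RYR2 at 0.134, SMAD3 at -0.128, CDKN1A at 1.96 and HMGCS1 at -7.68 CPM. LIPH was at -0.000821 with no filter, -0.00792 with library sizes alone, -0.0994 with the block and -0.0959 without it, and from -0.0991 to 0.134 with libraries left out in turn. SMPDL3B was at -0.0650 without the replicate 3 libraries, and from -0.0299 to 0.235 with libraries left out. TGFBR1 was at 0.00177 with DESeq2, 0.00370 with limma-voom, 0.00175 with median-ratio factors, 0.0357 with the block, 0.0346 without it and 0.0344 without the replicate 3 libraries, and from -0.0352 to 0.0552 with libraries left out. SMAD3 was at -0.0105 with no filter, -0.0117 with the block, -0.0121 without it, -0.0178 with library sizes alone, and from -0.0127 to 0.0229 with libraries left out. SMAD7 was at -0.0148 with limma-voom, -0.304 with the block, -0.300 without it, and from -0.330 to 0.257 with libraries left out. The linear values use another definition of additivity, in which CPM changes add, so their sign can differ from that of the log2 interaction in the same data. The cause of the other differences was not tested. Depth limits genes of low level, with a median standard error of 0.454 against 0.0654 for well-expressed genes.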
